A study of Mus musculus with 2 samples.

Results

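Open chromatin in the embryonic mouse retina was not spread evenly along the genome. The autosomes were divided into 24639 windows of 100 kb that did not overlap, and 906 of them (3.68%) held 20 or more DNase peaks in each of 2 libraries. These 906 windows, called dense windows here, were selected on the peak counts themselves, so their counts are a description and carry no test. They held 24426 of 161073 autosomal peaks (15.2%) in replicate 1 and 26685 of 213658 (12.5%) in replicate 2. A peak was placed in a window by its midpoint, and peaks listed more than once in a library were counted once.

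The series holds 1 group, the retina of mouse embryos of strain B6NCrl at embryonic day 14.5, taken from pooled males and females, with 2 biological replicates. The labels name 1 donor for both replicates but separate biosamples, so the spread between them may be partly technical. Replicate 1 was sequenced on 3 Illumina instrument models and replicate 2 on 2 of the same models, so instrument and replicate cannot be told apart. There is no second tissue, stage or treatment to compare with. The peak lists give no read numbers, so their depth is unknown.

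DNase I cuts DNA where nucleosomes have given way to bound factors, so its peaks mark promoters, enhancers and insulators. Genes that specify cell fate are often surrounded by long tracts of enhancers, each active in some cells or stages. Clusters of short, highly transcribed genes, such as histone, tRNA and housekeeping genes, instead pack many promoters into little sequence. Both arrangements can put many peaks into 1 window, and the share of peaks far from a transcription start site (TSS) describes how many lie away from annotated promoters. The TSS annotation used here leaves out tRNA genes, so peaks at them can count as far. In bulk tissue, a site open in few cells and a site weakly open in many cells cannot be told apart. A peak was called distal where its nearer edge lay more than 1 kb from every annotated TSS.

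Sequences of 5 distal peaks from the densest windows are printed as a selection. Each is the distal peak called in both libraries with the highest score rank in its window, written on the plus strand of mm10, and capitals mark every match on either strand to 14 short motifs. The motifs were TAATTA and TAATTAG (homeodomain cores, the second containing the first), TAATCC (OTX and CRX), CAGATG and CAGCTG (E-boxes of bHLH factors), ACAAAG (SOX), CCANNAGGG (the core of the CTCF site), TGANTCA (AP-1), GTTGCCATG (RFX), TTGGCA (an NFI core), GGGCGG (the GC box of SP and KLF factors), CCAAT (NFY), CCGGAAGT (ETS) and GCGCATGCG (NRF1).
Tbx2 window, intergenic, chr11:85843496-85843645: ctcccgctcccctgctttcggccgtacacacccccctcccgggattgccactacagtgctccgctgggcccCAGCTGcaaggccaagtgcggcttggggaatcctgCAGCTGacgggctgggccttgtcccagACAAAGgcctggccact
Sox2 window, intron of the long noncoding RNA Sox2ot, chr3:34647856-34648005: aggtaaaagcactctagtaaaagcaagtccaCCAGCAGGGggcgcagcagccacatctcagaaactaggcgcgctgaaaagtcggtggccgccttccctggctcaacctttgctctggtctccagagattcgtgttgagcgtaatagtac
Mir9-2 window, intron of the long noncoding RNA C130071C03Rik, chr13:83731196-83731345: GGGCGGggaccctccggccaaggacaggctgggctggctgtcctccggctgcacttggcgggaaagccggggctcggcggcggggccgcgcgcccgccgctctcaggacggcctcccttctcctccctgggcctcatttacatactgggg
Abt1 window, intergenic, chr13:23432656-23432805: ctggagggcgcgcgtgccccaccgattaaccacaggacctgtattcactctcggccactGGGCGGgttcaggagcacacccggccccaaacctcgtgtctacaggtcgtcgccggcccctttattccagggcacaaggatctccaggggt
Tfap2b window, intergenic, chr1:19206316-19206465: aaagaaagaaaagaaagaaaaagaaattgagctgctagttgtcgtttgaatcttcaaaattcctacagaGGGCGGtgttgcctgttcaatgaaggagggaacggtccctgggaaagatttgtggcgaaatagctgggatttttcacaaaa
The Tbx2 peak held 2 copies of CAGCTG and 1 of ACAAAG, and its scores were 127 and 141 in replicates 1 and 2. The Sox2 peak, 2.40 kb from the nearest TSS, held the CTCF core. The Mir9-2 and Abt1 peaks had GC contents of 74% and 64% and held a GC box each. The Abt1 peak lay 1.63 kb from the nearest TSS of the annotation but 346 bp from a tRNA gene. The Tfap2b peak, also with a GC box, had a GC content of 40.7%. The peaks picked in the same way in the window of Zic2 and Zic5 and in that of Cbx2, not printed here, held no match to the 14 motifs. A match describes the letters only and says nothing of which factor is bound.

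**Figure D1:**
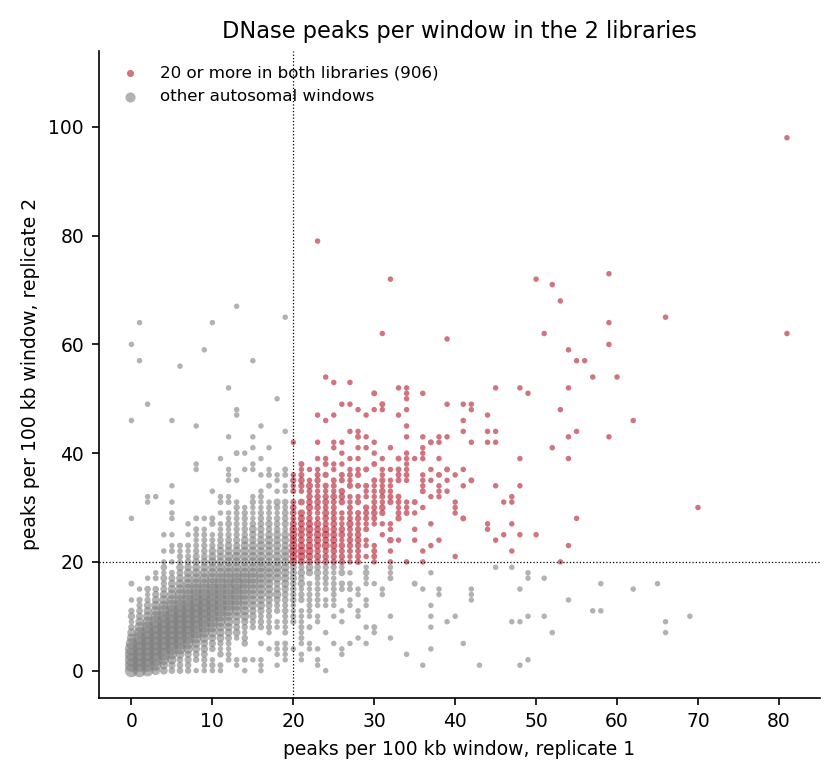
Peaks per 100 kb window in replicate 1 (horizontal axis) and replicate 2 (vertical axis). Each point is a pair of counts, larger where more windows share it; red points are the 906 dense windows, grey points the other autosomal windows, and dotted lines mark 20 peaks. The Six3 and Six2 window stands highest at 81 and 98 peaks, and some grey points lie far along 1 axis only.

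Peak counts in dense windows had a median of 24 (range 20 to 81) in replicate 1 and 27 (20 to 98) in replicate 2, against means over all autosomal windows of 6.54 and 8.67. Of the 906, 164 had 30 or more peaks in both libraries, 36 had 40 or more and 16 had 50 or more. Replicate 2 had more peaks in 558 dense windows, replicate 1 in 266, and 82 were equal. The larger count was a median of 1.16 times the smaller, and in 12 windows it was at least 2 times as large. With replicate 1 alone, 1176 windows (4.77% of all) reached 20 peaks, and 906 of these (77.0%) also reached it in replicate 2. With replicate 2 alone, 2011 windows (8.16%) did, and 45.1% of these also did in replicate 1. At the limit, 154 windows had exactly 20 peaks in the library with fewer and 168 windows just outside had 19. The distal shares of the 154 had medians of 67.3% and 69.3%, and those of the 168 had medians of 68.4% and 69%.

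The highest counts surrounded regulators of eye and forebrain development. The window chr17:85600001-85700000 with Six3, a homeobox gene required for the eye field and forebrain, and its neighbour Six2 had 81 and 98 peaks in replicates 1 and 2. The window chr14:122400001-122500000 with Zic2 and Zic5, zinc finger genes of which Zic2 directs ganglion cell axons to the same side of the brain, had 66 and 65. Pax6, a paired homeobox regulator of eye development, lay in chr2:105600001-105700000 with 59 and 73. Sox2, an HMG-box factor of neural progenitors, lay in chr3:34600001-34700000 with 59 and 60. Tbx2, a T-box gene of the dorsal retina, shared chr11:85800001-85900000 with Tbx4, and the window had 59 and 64. Tfap2b, a factor of amacrine and horizontal cells, was the only protein-coding start of chr1:19200001-19300000, with 57 and 54.

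Other windows among the 20 highest were more varied. Cxxc5 (60 and 54), Uncx (53 and 68) and Foxf2 (49 and 51) were each the only coding start of their window. The windows of Skida1 and Mllt10 (52 and 71), of the tubulin genes Tuba1a and Tuba1b (50 and 72) and of the replication factor Cdc6 and the retinoic acid receptor Rara (62 and 46) also ranked here. So did 2 windows of the large histone cluster on chromosome 13 (81 and 62, and 53 and 48), the tRNA-rich Abt1 window beside it (54 and 59) and the window of the mitotic kinase gene Aurkb and the clock gene Per1 (48 and 52). In all, 10 of the 20 held the start of a gene from the transcription factor families below. Between 54.4% and 90% of their peaks in replicate 1 and between 56.3% and 87.1% in replicate 2 were overlapped by a peak of the other library.

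Among the 20 highest, 2 windows had no protein-coding gene start. Of these, the window chr13:83700001-83800000 had 55 and 57 peaks, of which 42 and 41 were distal, and the nearest coding start, that of the neuronal transcription factor gene Mef2c, lay 196 kb away. It holds Mir9-2, 1 of the 3 genes of the neural microRNA miR-9, and the long noncoding RNA C130071C03Rik. The mature product, with its seed (bases 2 to 8) in capitals, is credited to RefSeq on GRCm38.p6.
mmu-miR-9-5p: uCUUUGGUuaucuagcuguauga
The window of Mir9-3 was dense as well (24 and 26 peaks), while that of Mir9-1 had 18 and 30 and fell outside.

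**Figure D2:**
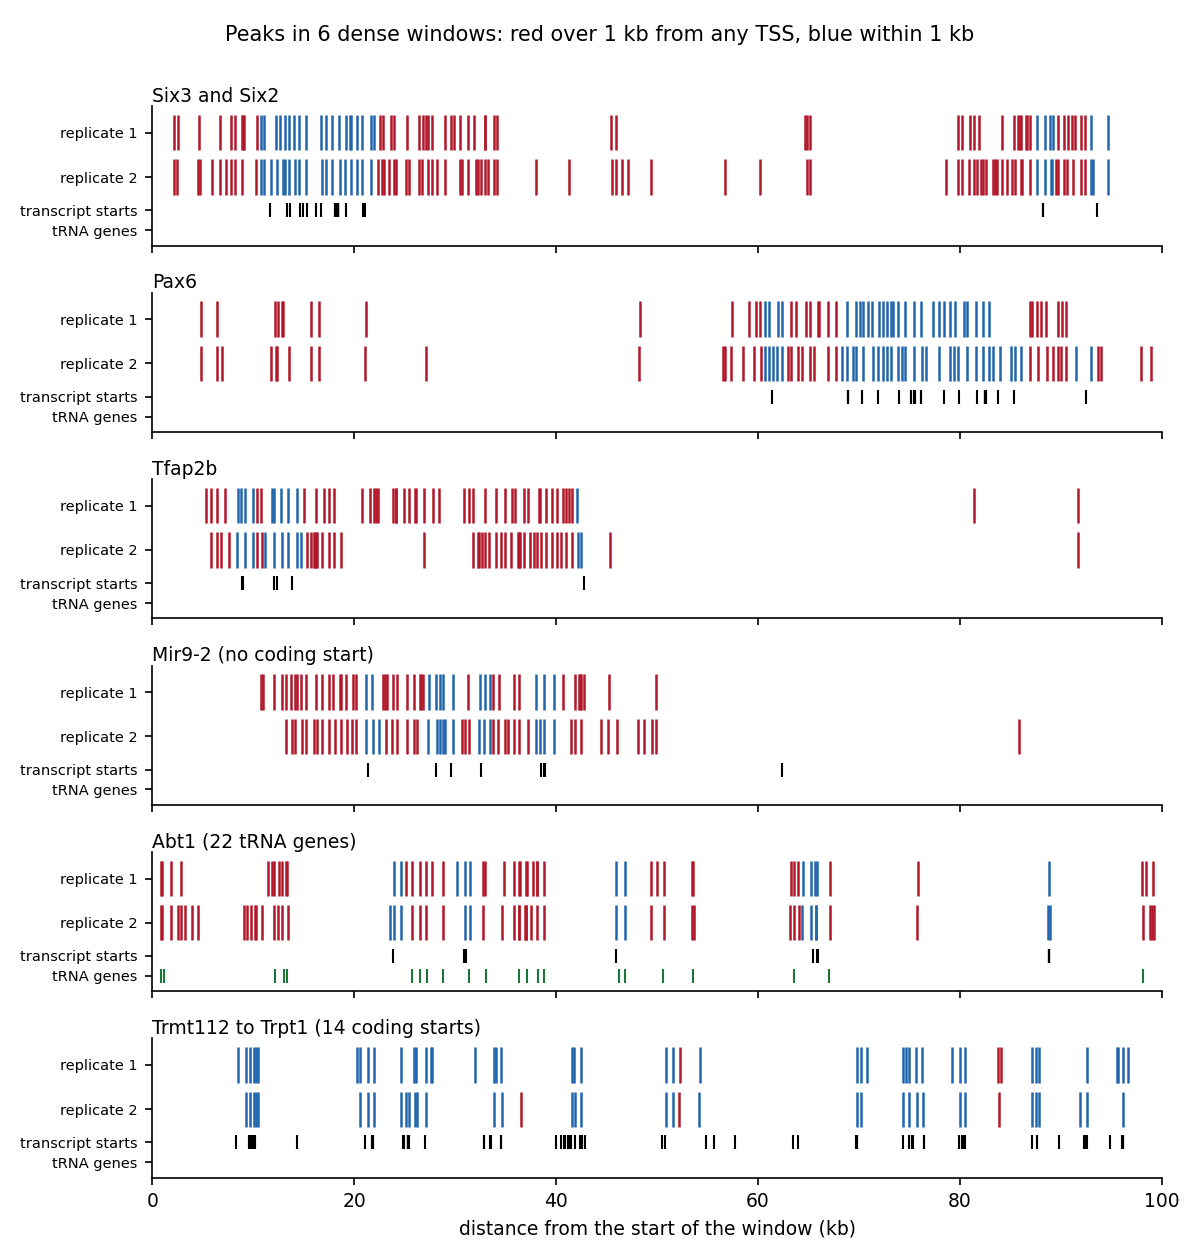
Positions of peaks in 6 dense windows, in kb from the start of the window, with the rows replicate 1, replicate 2, annotated transcript starts (black) and tRNA genes (green). Red bars are peaks more than 1 kb from any TSS and blue bars are peaks within 1 kb; peaks of Six3, Tfap2b and Mir9-2 form continuous tracts, those of Abt1 follow tRNA genes and those of the window with 14 coding starts follow transcript starts.

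Dense windows were less distal than the rest of the genome as a share, though most of their peaks were distal. Distal peaks made up 63.9% (exact 95% interval 63.3 to 64.5) of the peaks of dense windows in replicate 1 and 64.9% (64.3 to 65.5) in replicate 2, a mean of 64.4% ± 0.718 (SD, n = 2). In all other autosomal windows the shares were 74.2% (73.9 to 74.4) and 77.6% (77.4 to 77.8), a mean of 75.9% ± 2.43. The 1352 windows with 15 to 19 peaks in the library with fewer were between them, with 66.9% and 68.4%. The intervals cover counting error only. Dense windows had fewer distal peaks per 100 peaks in both libraries, with a mean difference of -11.5 ± 1.71 percentage points (SD, n = 2), more than the spread between the libraries.

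Dense windows had larger shares of peaks at promoters and in exons, and smaller shares in introns and intergenic sequence. In dense windows 35.6% ± 0.718 of peaks lay within 1 kb of a TSS, against 24.1% ± 2.43 in other windows (SD, n = 2 libraries each). Distal peaks in exons made up 7.87% ± 0.213, against 4.43% ± 0.168. Introns held 29.0% ± 0.853, against 36.6% ± 1.46, and intergenic sequence held 27.5% ± 0.0778, against 34.9% ± 1.14. The distal peaks of dense windows also lay closer to genes, at a median of 5.72 and 5.70 kb from the nearest TSS in replicates 1 and 2, against 14.4 and 15.5 kb elsewhere. Within 10 kb of a TSS were 67.0% and 67.2% of them, against 40.2% and 38.5%.

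The distal share of single dense windows, averaged over the libraries, ran from 6.97% to 100%, with a median of 66.7% and quartiles of 49.9% and 79.4%. It was below 50% in 228 windows and 75% or more in 300, and in 45 windows every peak of both libraries was distal. In 231 windows the distal peaks alone numbered 20 or more in both libraries. The shares of the 2 libraries had a Spearman correlation of 0.916 over the 906 windows, against 0.482 for the counts, which the choice of windows had cut off at 20. Both values describe windows of the same 2 libraries and carry no p.

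Gene content separated the 2 ends of this range. The distal share is measured from annotated TSSs, so this follows in part from the measure and is a description. The lowest shares belonged to windows crowded with protein-coding genes. The window chr19:6900001-7000000, with 14 coding starts from Trmt112 to Trpt1 including the nuclear receptor gene Esrra and the growth factor gene Vegfb, had 48 and 39 peaks, of which 3 and 3 were distal. The window chr17:35000001-35100000 of the major histocompatibility complex, with 12 coding starts including Clic1 and Ddah2, had 26 and 32 peaks, of which 1 and 6 were distal. All of the 10 lowest had 7 to 14 coding starts. Of the 45 windows at 100%, the 10 with the highest count in the library with fewer peaks were taken as the highest. Of these 10, 8 had no coding start. The window chr6:51100001-51200000 had 35 and 31 peaks, no annotated gene start and its nearest coding start (Nfe2l3) 233 kb away. The windows inside the genes of the ephrin receptor Ephb2 (33 and 29 peaks), the polarity protein Pard3 (25 and 47) and the RNA-binding protein Msi2 (26 and 25) were others. The remaining 2 held tRNA genes, 20 in the window of the Fc receptor genes Fcgr3 and Fcgr4 and 13 in the window of the glutathione peroxidase gene Gpx5.

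The windows without a coding start numbered 123. A coding gene body covered the middle of 64 of them, 75 held the start of a long noncoding RNA and 38 had no annotated gene start. The nearest coding start was a median of 42.0 kb away and at most 477 kb. Other examples, chosen after their values were seen, were chr14:64500001-64600000 with the gene of the neuronal microRNA miR-124 named Mir124a-1 (32 and 32 peaks), chr3:17700001-17800000 with Mir124a-2 (30 and 28) and chr2:115800001-115900000, 166 kb from the homeobox gene Meis2, where 30 of 30 and 27 of 29 peaks were distal.

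Dense windows had more gene starts, with a median of 2 protein-coding starts (quartiles 1 and 4, range 0 to 15), against a median of 0 (quartiles 0 and 1, range 0 to 17) in the 23064 other assembled windows. The windows with 15 to 19 peaks in the library with fewer also had a median of 2 (quartiles 1 and 3). Their mean was 2.08 coding starts, against 2.90 in dense windows. Of windows with no coding start 0.885% were dense, of those with 1 start 4.82%, of those with 5 to 8 starts 24.3%, and of those with 9 or more starts 54.5%. At equal numbers of coding starts the order of the distal shares was different from the pooled one. With 1 coding start, 73.0% and 74.0% of peaks in dense windows were distal, against 67.6% and 70.8% in other windows. With 2 starts the shares were 69.6% and 70.4%, against 59.9% and 62.2%. With 3 to 4 starts they were 59.9% and 60.4%, against 50.4% and 52.6%. With 5 to 8 starts they were 44.2% and 44.0%, against 41.7% and 43.2%. With 9 or more starts they were 28.3% and 29.4%, against 27.9% and 29.4%, and with none 87.7% and 88.0%, against 92.6% and 93.5%. Dense windows were chosen for a high total of peaks, which at a given number of starts leaves more room for distal peaks, so these shares are a description and not independent of the choice.

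**Figure D3:**
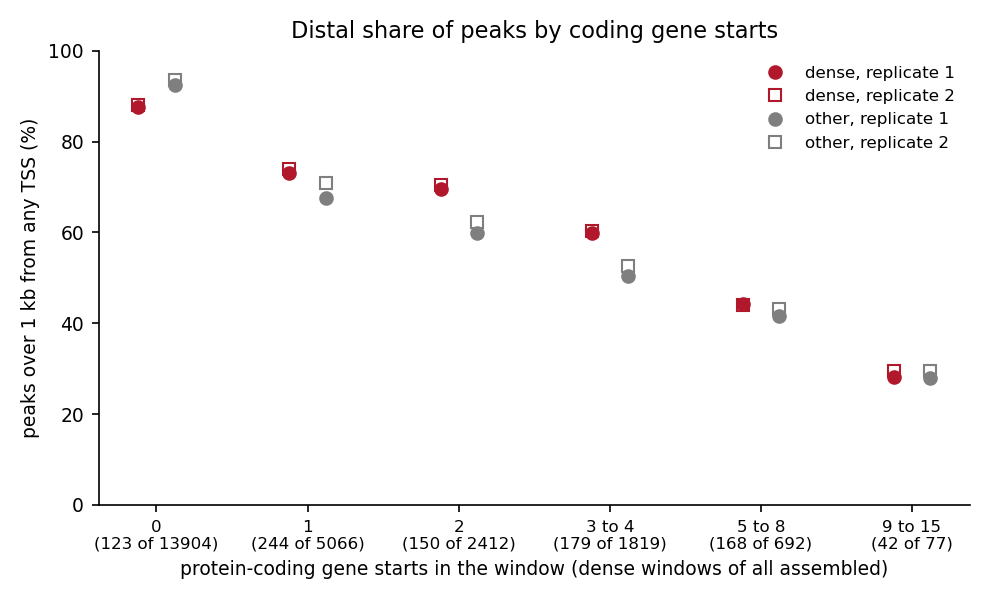
Share of peaks more than 1 kb from any TSS (vertical axis, percent) by the number of protein-coding gene starts in the window (horizontal axis, with the dense windows of all assembled windows in brackets). The class marked 9 to 15 takes in all windows with 9 or more starts. Red marks are dense windows and grey marks other windows, filled for replicate 1 and open for replicate 2; red lies above grey from 1 to 8 starts and below it at 0.

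Transcription factor genes started in dense windows more often than other genes. Of 20807 autosomal protein-coding genes, 2627 (12.6%) started in a dense window. Of 585 genes in 7 groups of transcription factor families defined by symbol, 218 (37.3%) did, against 2409 of 20222 other coding genes (11.9%). Homeobox and Pax genes reached 88 of 199 (44.2%), Sox genes 8 of 18 (44.4%), forkhead genes 15 of 41 (36.6%), bHLH genes 31 of 95 (32.6%) and nuclear receptors 11 of 45 (24.4%). Zinc finger genes named Zfp, many of which lie in large clusters of related genes, were near the background, with 43 of 379 (11.3%). The families were chosen with earlier results of these data known, and their shares are descriptions.

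Dense windows with the start of a gene of these families numbered 190 (21%), against 341 of 23064 other assembled windows (1.48%). The share was higher where the windows had more peaks, with 77 of 556 windows at 20 to 24 peaks in the library with fewer (13.8%), 62 of 164 at 30 or more (37.8%) and 20 of 36 at 40 or more (55.6%). Among windows with 1 coding start the gene belonged to these families in 91 of 244 dense windows (37.3%), in 51 of 381 windows with 15 to 19 peaks (13.4%) and in 175 of 4822 windows that were not dense (3.63%). The 190 windows had median counts of 27 and 32 peaks, and the 716 others had 24 and 26. The median distal shares of the 2 sets were 67.5% and 65.7%.

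Genes of retinal progenitors were the list most often found in dense windows, with 21 of 25. Besides Six3, Pax6 and Sox2 these included Rax, a homeobox gene of the eye field (44 and 44 peaks), Hes5, a Notch effector (39 and 37), Ccnd1, the cyclin that drives retinal progenitor division (38 and 36) and Lhx2, a LIM homeobox gene of the eye field (33 and 32). Sox9, Hes6, Sfrp2 and Nr2e1 were outside, with 13 to 19 peaks in replicate 1 and 17 to 25 in replicate 2. The median count in the library with fewer peaks was 29 over the 25 genes, against 9 over all autosomal coding genes. Genes that pattern the axes of the eye, the optic stalk and the ciliary margin followed with 16 of 22, among them Vax2 of the ventral retina (45 and 34), Vax1 (38 and 32) and Tbx5 of the dorsal retina (31 and 62).

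Genes of newly born neurons were found there less completely. The lists below reached, in order, 44.4%, 52.4%, 33.3% and 33.3%. For comparison, 12.6% of all autosomal coding genes and 37.3% of genes in the transcription factor families started in dense windows. Of the genes that start neurogenesis 8 of 18 lay in dense windows, among them Neurog2 (24 and 38), Insm1 (31 and 29) and Atoh7, which is needed for ganglion cells (22 and 23). Of the amacrine and horizontal cell list 11 of 21 did, with Tfap2b, Barhl2 (42 and 48), Lhx9 (38 and 39), Prdm13 (34 and 51) and Ptf1a (24 and 23). Of the ganglion cell list 8 of 24 did, with Pou4f1 (30 and 38), Isl2 (29 and 28) and Pou4f2 (21 and 26), while the effector genes Gap43 (15 and 17) and Nefl (16 and 18) did not. Of the photoreceptor precursor list 5 of 15 did, with Otx2, the factor that sets photoreceptor fate (33 and 47), the rod factor gene Nrl (25 and 25), Casz1 (26 and 42), Prdm13 and Sall3 (24 and 26). Crx, Thrb, Prdm1, Rxrg and Nr2e3 did not. Prdm13 was on both this list and the amacrine and horizontal cell list and was counted in each. The Nrl window held 10 coding starts, and 6 of its 25 peaks were distal in each library.

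The lists of other tissues and of general functions varied as widely. Of telencephalon genes 11 of 18 lay in dense windows, with Dlx1 and Dlx2 in a single window (44 and 47) and Emx2 (34 and 52). Only 2 of 16 pigment epithelium genes did, Otx1 (29 and 30) and Dct (21 and 22), a share of 12.5% beside the background of 12.6%. Without peaks by tRNA genes the Dct window had 18 and 19 and was no longer dense. Lens genes reached 5 of 21, mesenchyme and neural crest genes 7 of 22, endothelial genes 5 of 17 and signalling genes 15 of 42. Of the microglia and blood list 7 of 16 did, at the genes C1qa, C1qb, C1qc, Cd68, Fcer1g, Klf1 and Tyrobp. The last 4 lay in windows with 7 to 12 coding starts, and the complement genes C1qa, C1qb and C1qc share 1 window with Ephb2, while the microglial receptor genes Csf1r (6 and 7 peaks), Cx3cr1 (12 and 11) and P2ry12 (5 and 4) were outside. Housekeeping genes reached 9 of 18, with a median distal share of 36.1% in their dense windows, and cell cycle genes 6 of 22. These counts compare window positions and do not show which gene a peak acts on.

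Of 39 Hox genes, which pattern the trunk and hindbrain, 16 started in dense windows. They were all 11 of the Hoxa cluster (27 and 44 peaks in the first window, 41 and 49 in the second) and Hoxd9 to Hoxd13 (37 and 42), while the windows of the Hoxb and Hoxc clusters had 10 to 30 peaks per library and none was dense. The window of Hoxd1, Hoxd3, Hoxd4 and Hoxd8 had 69 and 10 and was outside. The 3 Hox windows had a median of 51.2% and 42.9% of peaks overlapped by the other library, against 76.0% and 66.7% over all dense windows.

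**Figure D4:**
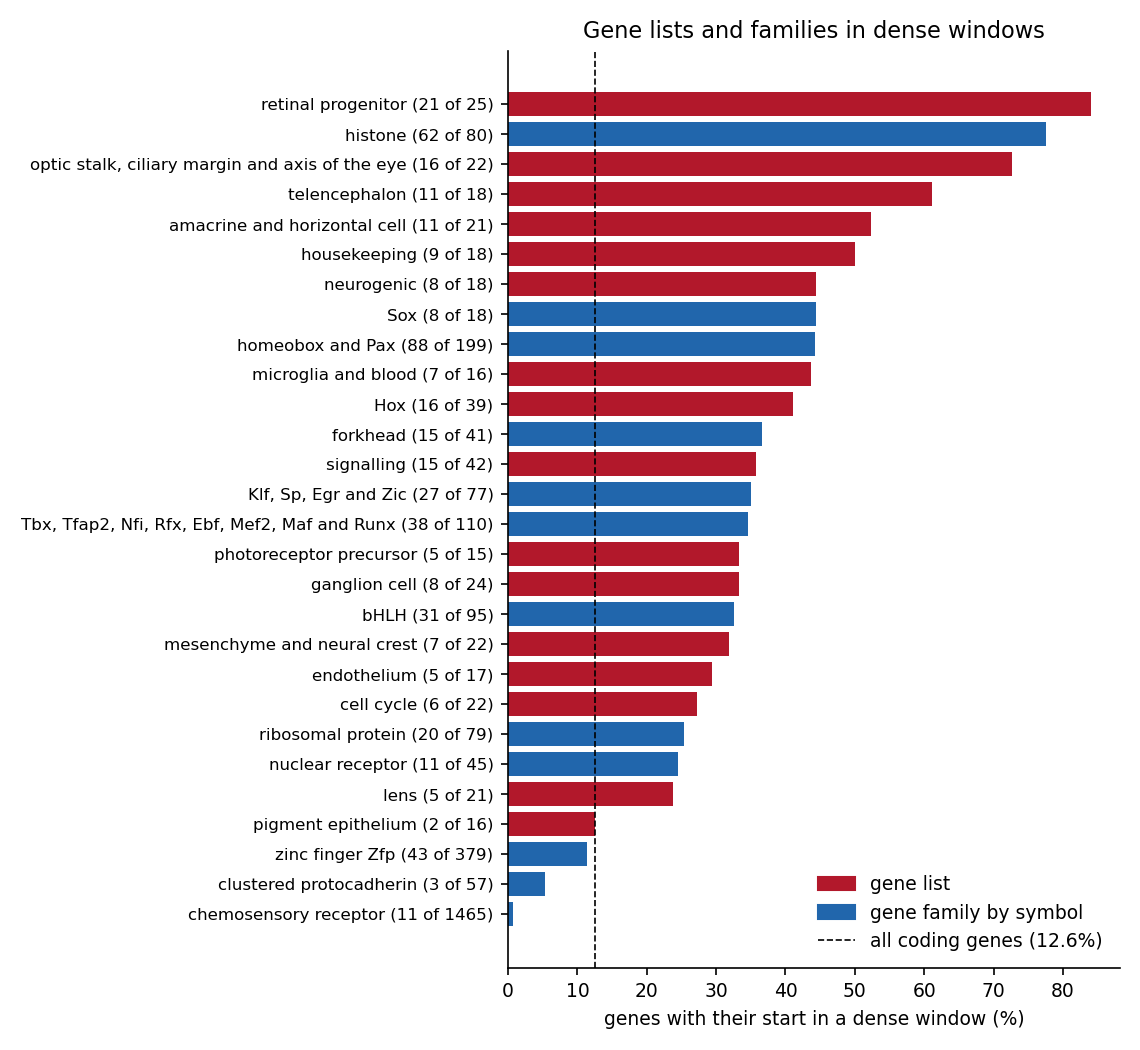
Share of the genes of each list (red) and symbol-defined family (blue) that start in a dense window, in percent, with the numbers in brackets. The dashed line is the share of all autosomal coding genes, 12.6%; the retinal progenitor list reaches 84.0% and chemosensory receptors 0.751%.

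Tandem clusters of small genes formed a second kind of dense window. Of 80 histone genes 62 (77.5%) started in only 11 dense windows. Ribosomal protein genes, which are scattered, reached 20 of 79 (25.3%). Clustered protocadherins (3 of 57, 5.26%) and chemosensory receptors (11 of 1465, 0.751%), which are also tandem clusters, were mostly outside. Of the 7 dense windows with a chemosensory receptor start, 4 also held 7 to 9 tRNA genes and the other 3 held none.

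A larger share of transfer RNA genes than of coding genes started in dense windows. Of 386 autosomal tRNA genes annotated by RefSeq, 219 (56.7%) started in a dense window, and they fell in 36 windows, 18 of them with 5 or more. Peaks at tRNA genes were among those counted to choose the windows, so this share and the next values are a description. A peak lay within 100 bp of 178 and 180 of the 219 in replicates 1 and 2, against 75 and 75 of the 167 tRNA genes elsewhere. Distal peaks within 1 kb of a tRNA gene were 2.19% and 1.99% of the distal peaks of dense windows, against 0.128% and 0.0924% elsewhere. The Abt1 window had 22 tRNA genes, and 44 of its 54 and 38 of its 59 peaks lay within 1 kb of 1 of them. In the Gpx5 window every peak was distal by the annotation used here, yet 25 of 26 and 30 of 33 lay by a tRNA gene. The window of the olfactory receptor genes Olfr1423 to Olfr1426 had 20 and 20 peaks, of which 15 and 15 lay by its 8 tRNA genes. Without the peaks near tRNA genes 20 of the 906 windows dropped below 20. Among them were the windows with the most tRNA genes, those of Abt1 (22), of Fcgr3 and Fcgr4 (20) and of Zfp184 (19).

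Dense windows often adjoined each other. Of the window positions next to a dense window 21.4% were dense, against 3.68% of all windows. The 906 formed 712 runs, of which 589 were single windows, 123 had 2 or more and 44 had 3 or more. The 9 runs of 5 windows were mostly gene-rich. They included the histone and tRNA cluster chr13:23300001-23800000 with 35 coding starts (209 and 212 peaks, 54.1% and 55.7% distal), chr8:84600001-85100000 with Nfix, Klf1 and Junb (184 and 150 peaks), chr15:98600001-99100000 with Wnt1, Wnt10b and the tubulin genes (149 and 193) and chr6:124700001-125200000 with Gapdh, Eno2 and Chd4 (140 and 129 peaks, 35.7% and 31.0% distal). A different kind was chr8:120200001-120700000 with Gse1, Gins2 and 6 coding starts in all, where 78.5% of 149 and 87.6% of 177 peaks were distal. By chromosome, dense windows made up 9.09% of the windows of chromosome 11 and 1.12% of those of chromosome 16.

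The base composition of dense windows, which the choice did not use, was richer in G and C. The median GC content was 48.5%, against 41.2% in other assembled windows, with 14.8 against 7.58 CpG per kb. Soft-masked repeats covered a median of 25.7%, against 32.0%. The 1352 windows with 15 to 19 peaks in the library with fewer had a median GC content of 47.1%. Their medians of 13.05 CpG per kb and 25.9% repeats were also close to those of dense windows. This composition was therefore not particular to dense windows. Hotspot coverage and peak spacing follow from the choice of windows and are given as a description. Hotspots, the broader regions of cutting that contain the peaks, covered a median of 8.92 and 11.4 kb per dense window, against 1.36 and 2.40 kb. Adjacent peaks were a median of 0.760 kb apart in both libraries, against 2.16 and 2.10 kb.

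Motifs of distal peaks separated into those less frequent in dense windows, among them all 3 with the letters TAAT, and those more frequent, among them the GC box. The homeodomain core TAATTA, the letters bound by many homeodomain factors, was present in 3.84% and 4.65% of distal peaks of dense windows, against 6.05% and 7.44% of distal peaks elsewhere. The longer form TAATTAG was in 1.90% and 2.23%, against 2.89% and 3.54%. The AP-1 motif TGANTCA was in 3.85% and 3.96%, against 5.04% and 5.42%, and ACAAAG in 12.9% and 13.0%, against 15% and 15.1%. The GC box GGGCGG was more frequent, in 9.63% and 9.67%, against 4.58% and 4.38%. The NRF1 motif GCGCATGCG, in 0.263% and 0.248% against 0.108% and 0.0896%, and the ETS motif CCGGAAGT, in 0.365% and 0.341% against 0.189% and 0.181%, moved the same way. These 3 motifs are typical of promoters, and GGGCGG was in 29.8% and 28.9% of promoter peaks of dense windows, against 30.4% and 27.5% elsewhere. The ETS and NRF1 motifs were less frequent in promoter peaks of dense windows. CCGGAAGT was in 1.67% and 1.65% of them, against 2.33% and 2.00%, and GCGCATGCG in 0.737% and 0.768%, against 1.03% and 0.859%. The CTCF core CCANNAGGG was in 6.62% and 6.42%, against 6.07% and 5.56%, and the E-box CAGCTG in 15.3% and 15.5%, against 14.7% and 15.2%. The RFX motif GTTGCCATG was in 0.711% and 0.855%, against 0.658% and 0.698%. The remaining motifs were less frequent in dense windows, with CAGATG in 14.5% and 15.1%, against 16.8% and 17.3%, CCAAT in 17.3% and 17.5%, against 19.7% and 20%, TTGGCA in 7.53% and 7.74%, against 8.73% and 8.76%, and TAATCC in 5.15% and 5.41%, against 5.88% and 6.50%.

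Distal peaks had a median GC content of 53.3% and 52.7% in dense windows, against 49.3% and 48.7% elsewhere. Within 6 classes of GC content of the peak, GGGCGG remained more frequent in dense windows in all 6 in both libraries, by 1.10 to 1.78 times in replicate 1 and 1.11 to 1.37 times in replicate 2. TAATTA was less frequent in 5 of 6 classes in each library, with ratios from 0.667 to 1.33 and from 0.734 to 1.28. CAGCTG, which was slightly more frequent over all distal peaks, was less frequent in all 6 classes in both libraries, as was CAGATG. The CTCF core was more frequent in 1 and 2 of 6. In dense windows with 0 to 1 coding starts TAATTA was in 4.76% and 5.70% of distal peaks, against 6.69% and 8.13% in other windows with as many. In the 190 windows with a transcription factor start it was in 4.14% and 4.99%, and in the other 716 in 3.74% and 4.54%.

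**Figure D5:**
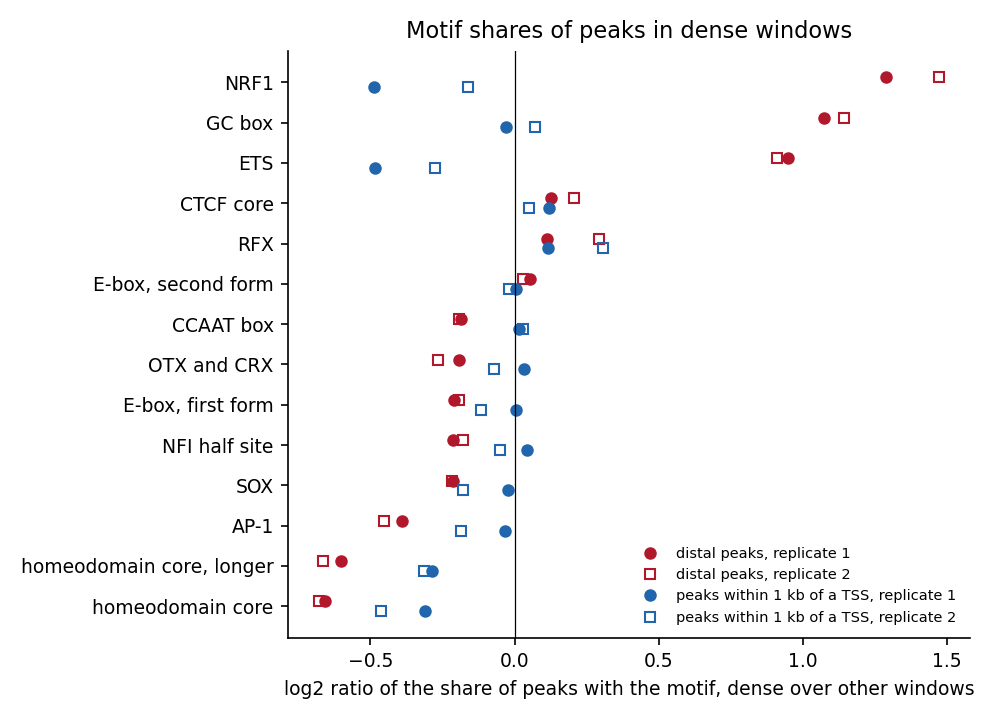
Log2 ratio of the share of peaks with each motif in dense windows over other windows (horizontal axis) for 14 motifs, with distal peaks in red and peaks within 1 kb of a TSS in blue, filled circles for replicate 1 and open squares for replicate 2. In distal peaks the GC box lies at 1.07 and 1.14 and the homeodomain core at -0.66 and -0.68.

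Distal peaks of dense windows scored higher within their library, with median deposited scores of 31 and 55, against 26 and 43 elsewhere, while promoter peaks differed less, at 46 and 74 against 47 and 69. In the top score decile of the library were 6.79% and 9.61% of the distal peaks of dense windows, against 2.84% and 4.02%. Despite this, they were not shared between the libraries more often in replicate 1, where 70.5% were overlapped by a peak of replicate 2, against 71.3% elsewhere. In replicate 2 the shares were 61.8% and 48.6%. Dense windows were chosen for many peaks in both libraries. These overlaps and those by score decile are therefore a description and not independent of the choice. At equal score decile the distal peaks of dense windows were overlapped less often in 9 of 10 deciles of replicate 1 and in 7 of 10 of replicate 2, with differences from -17.2 to 2.94 and from -7.52 to 14.4 percentage points.

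Counting only peaks called in both libraries, 318 of the 906 windows (35.1%) still had 20 or more in each; windows outside the choice cannot pass this count. Of these 318, 89 (28.0%) held a transcription factor start, against 101 of the remaining 588 (17.2%), and their pooled distal shares were 60.9% and 61.9%, against 66.1% and 67.2%. In 11 dense windows under 50% of the peaks were shared in both libraries. Among these was the window of Foxa2, a forkhead gene of endoderm and floor plate, where 4 of 20 and 4 of 26 peaks were shared. The window of Fam205a1 had 5 of 36 and 5 of 20, with median scores of 6 and 15.5 beside 35.5 and 62 over all dense windows. Of the windows whose counts differed at least 2 times, the most unequal was that of Gpr1 and Zdbf2, with 23 and 79 peaks. The windows of Prdm12 (20 and 42) and of the patterning genes Dlx5 and Dlx6 (32 and 72 peaks), Tbx3 (24 and 54), Nkx2-1 (25 and 53) and Tbx5 (31 and 62) also had more peaks in replicate 2, as did a window with no coding start (23 and 47). Others had more in replicate 1, with median scores there from 8 to 31. The window of Tgfb2 had 70 and 30 peaks with median scores of 8 and 44.5, and that of Phgdh 53 and 20 with 8 and 60.5. The part of these low scores in the counts was not tested.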

How the data were processed

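DNase-seq libraries of E14.5 mouse retina, 2 biological replicates of 1 group, were analysed from deposited peak and hotspot lists on mm10, per the labels. The score of each peak, from 1 to 150, and the hotspot −log10 value of the false discovery rate are the authors' deposited values; what computed them is not given in the sources used here. Scores were used to describe or rank peaks within a library. Exact copies of a peak (34 and 56) were removed, and only the 19 autosomes were used. TSSs came from GENCODE M21 transcripts, tRNA genes and the microRNA from RefSeq GRCm38.p6. A peak was shared where at least 1 bp overlapped a peak of the other library. Windows made mostly of unknown bases (669) were left out where assembled windows are named. Members, 16 gene lists (341 of 347 distinct entries matched) and 12 families were chosen with earlier results of these data known. Named windows were the 20 with the highest count in the library with fewer peaks, the 10 highest and 10 lowest in distal share, and windows of listed genes; others were named after their values were seen, as were the runs and the windows with few shared peaks. Some windows and genes under the rule are not reported here. No test was made: peaks and windows of 1 tissue are not replicates, and n = 2 libraries gives the SD. Intervals are exact (Clopper-Pearson) at 95%. Python 3.11.15, numpy 2.4.6, pandas 2.3.3, scipy 1.17.1 and pysam 0.24.0 were used, and counting and motif steps were tested on simulated peaks. Alternatives covered window size, threshold, library, TSS set, distance and overlap.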

Additional observations from a re-analysis of the deposited data

How the results depend on the processing

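The difference in distal share between dense and other windows was negative under all settings tried, from -24.8 to -6.88 percentage points. The number of dense windows, 906, and the other values moved as follows, with the cause not tested. With 50 kb windows of 10 or more peaks there were 2523, a median of 1 coding start and 11.1% with a transcription factor start. With 200 kb windows of 40 or more there were 293, with 62.4% distal, a median of 5 coding starts, 32.4% with a transcription factor start, 72.9% reaching the threshold in replicate 2 after replicate 1 and 38.2% adjoining another. With thresholds of 15, 25 and 30 peaks there were 2258, 350 and 164, with a transcription factor start in 13.2%, 32.3% and 37.8%, reached in replicate 2 by 85.7%, 63.9% and 59.6%, and adjoining another in 54.1%, 25.4% and 19.5%; distal shares at 15 and 30 were 66.0% and 63.3%, and the GC-box ratio at 30 was 2.23. Peaks ranked above their library's median score gave 191 windows at a threshold of 20 and 1925 at 10, with distal shares of 57.3% and 58.2% (other windows 64.7% and 67.2%, differences -7.43 and -9.00), transcription factor starts in 30.4% and 15.4%, shared distal peaks of 78.4% and 79.9%, GC-box ratios of 2.04 and 2.05, transfer of 95% and 97.7% and adjoining windows of 25.7% and 51.2%, with a median of 3 coding starts at 20. A grid shifted by 50 kb gave 63.5% distal and 38.4% adjoining. TSS distances of 500 bp, 2 kb and 10 kb gave distal shares of 74.4%, 52.7% and 21.2%, against 82.3%, 69.1% and 46.0% (differences -7.96, -16.4 and -24.8). Coding TSSs gave 70.0% against 79.4% (-9.40) and gene 5′ ends 74.6% against 81.5% (-6.88). All annotated genes gave a median of 4 starts. A 75 bp overlap gave 55.9% of distal peaks shared, and motifs in the central 75 bp a ratio of 2.26. The larger library cut by score gave 775 windows and a transfer of 65.9%.

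Without replicate 1 or replicate 2 the windows numbered 1176 to 2011, their distal share was 66.7% to 69.1% (difference -9.17 to -7.29), the median of coding starts 1 to 2, the transcription factor share 14.1% to 18.5%, the GC-box ratio 1.83 to 2.05 and the adjoining share 39.6% to 46.3%. The following were added after seeing the data. Scores written with a decimal point left out gave 585 windows, 63.0% distal, 26.8% with a transcription factor start, a ratio of 2.31 and a transfer of 79.5%. In dense windows 13.5% and 7.45% of peaks in replicates 1 and 2 overlapped another peak of the same library. Merged overlapping peaks gave 756 windows and 63.4% distal, and tRNA starts counted as TSSs gave 63.0%. No paired analysis was possible because the series has 1 group and no test. Depth is unknown, so a window under 20 peaks may have open sites that were not called.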

Other observations

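Windows of the sex chromosomes were outside the choice of autosomal windows. By the same count of 20 peaks in both libraries, 8 windows of chromosome X and 1 of chromosome Y passed. The highest on X, with no coding start, had 66 and 61 peaks in replicates 1 and 2, and the Y window had 43 in the library with fewer. Other windows of X held Bcor, which encodes a transcriptional corepressor (46 and 36 peaks), the RNA helicase gene Ddx3x (23 and 20) and, in 1 window, the synaptic vesicle gene Syp and the retinal calcium channel gene Cacna1f (23 and 23). The window before that of Bcor, with no coding start, had 33 and 41.

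A further 23 autosomal windows had 50 or more peaks in 1 library and under 20 in the other, 12 with more in replicate 1 and 11 with more in replicate 2. By comparison, 45 dense windows reached 50 in a library. The window with Hoxd1 to Hoxd8 had 69 and 10 peaks, that of Serinc5 66 and 9, that of Iqgap2 65 and 16, that of Nr2f2, a nuclear receptor gene of the optic stalk and ventral eye, 19 and 65, and a window on chromosome 1 with no coding start 0 and 60. In the library with more peaks the median of the windows' median scores was 7 in replicate 1 and 11 in replicate 2, against 35.5 and 62 over dense windows, and a median of 13.4% and 10.2% of those peaks were shared. Of the named windows, that of Nr2f2 had a median score of 58 in replicate 2 and the Hoxd window 26 in replicate 1. Another 2 had higher median scores than the Hoxd window, that of Ier5 (18 and 50 peaks) with 46 and a window on chromosome 4 (12 and 52 peaks) with 40, both in replicate 2.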
